A study of Homo sapiens with 6 samples.

Results

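Chemokines, interleukins and the regulators of NF-kB were followed in WM164, a human melanoma cell line whose labels give a mutant BRAF kinase. The 42 genes are a list of names, drawn up with earlier results of these data known and with no threshold on a value, and each was read from the probe set that the platform annotation pairs with that symbol alone. Such a probe set was found for 41 of the 42, out of 18417 genes tested in the whole series. The TNF receptor adaptor gene TRAF2 was not analysed here. For 40 genes there was 1 probe set, and TNF had 3 whose values were identical on every array.

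NF-kB is a family of paired transcription factors held in the cytoplasm by IkB proteins. Receptors for interleukin 1 and TNF act through adaptors of the TRAF family on the IkB kinases, which mark IkB for destruction and free NF-kB to enter the nucleus. Its targets include chemokines, which draw leukocytes to tissue, and its own brakes, among them NFKBIA and TNFAIP3. Melanoma cells are known to secrete CXCL8 and related chemokines, often with high NF-kB activity.

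Parent cells were compared with IDTC colonies, the name the labels give to cells kept for 60 days in 500 nM PLX4032 (vemurafenib, an inhibitor of mutant BRAF), with fresh inhibitor medium every 3 days. Parent cells received the solvent DMSO according to the series title and are described as untreated in the sample labels. Both groups are the same line, and the labels used here do not say whether a colony sample was 1 clone or a pool. Each group has 3 samples, kept in triplicate and extracted separately according to the series text, and each was hybridised alone to an Affymetrix whole-transcript array with 1 colour. How far back the triplicates had been apart is not stated, so the error of a difference covers only the samples as they were prepared. The SE given is the moderated one of limma, which combines a gene's spread among the 3 samples of each group with the spread over all genes. No batch or scan date was given, and one that followed the groups could not be separated from the treatment.

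Every level below is a deposited log2 value, and every difference is colony minus parent on that scale, so that 1 is a 2-fold difference. Array medians lay between 6.25 and 6.34. Arrays correlated at 0.997 to 0.998 within groups and at 0.967 to 0.969 between groups. Of 7 melanocyte markers, 6 had means above that of the median gene, and 1, the pigment enzyme gene TYRP1, was dim in both groups (4.69 in parent cells, 4.45 in colonies). The melanocyte genes MITF (11.14 in both groups), SOX10 (10.73 in parent cells, 11.14 in colonies), PMEL (12.52 and 12.86) and MLANA (10.94 and 9.50) were far above the array medians. Of 11 leukocyte markers, 9 had both group means under the lowest array median, as had 3 of 7 fibroblast, 6 of 7 endothelial and 4 of 6 keratinocyte markers. The summed leukocyte level ranged from 9.43 to 9.55 on parent arrays and from 8.79 to 8.86 on colony arrays, where LYZ changed by -2.35 and FCER1G by -1.44. Its part in the results below was not tested.

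Most of the secreted signals were dim and did not pass the test. Most of the intracellular machinery was bright, and its called genes went in both directions, with the deepest fall in TNFAIP3. On the whole array, too, 68.0% of genes above the median gene were called, against 19.5% of the others. With p-values from limma, adjusted by Benjamini-Hochberg across the 18417 genes and called under 0.05, 9 of the 41 genes rose, 8 fell and 24 missed the threshold. Across all genes 43.8% passed, 20.9% as higher and 22.9% as lower, so the share called here is near that of the array. The median difference was 0.07, against -0.00 over all genes. By at least 1.5-fold 8 of 41 passed, against 15.6% of all genes, and by at least 2-fold 4 of 41, against 5.42%. The values of the groups did not overlap for 23 of 41 genes, against 50.8% of all genes.

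Calls were more frequent among bright genes, here as on the whole array. Of the 18 genes whose mean over the 6 arrays was above that of the median gene (7.02), 11 were called, against 68.0% of such genes on the array. They comprised 6 that rose and 5 that fell, against 31.2% and 36.8% of such genes. Of the other 23, 6 were called, against 19.5%. In 20 of the 41, both group means lay under the lowest array median, 6.25, and whether those levels were above background was not tested. These 20 include 6 of the 7 CXC chemokines and all 7 interleukin and TNF genes.

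**Figure D1:**
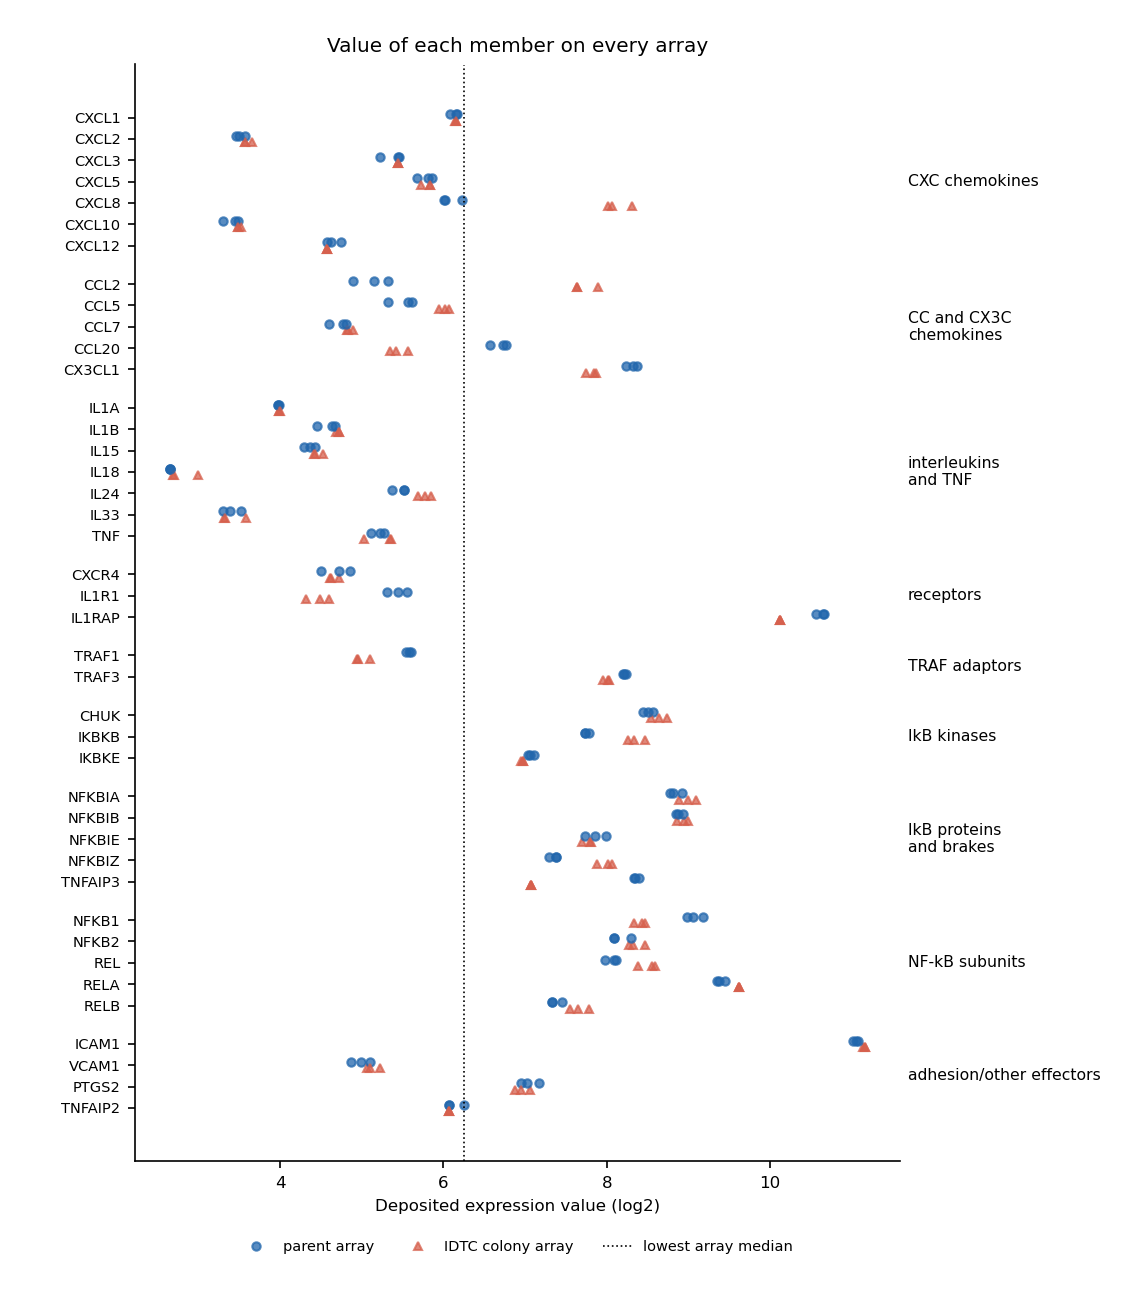
Deposited log2 value (x axis) of each of the 41 genes (rows, by role) on the 3 parent arrays (blue circles) and the 3 IDTC colony arrays (red triangles), with the lowest array median, 6.25, as a dotted line. CXCL8 and CCL2 cross from below the line to above it, CCL20 crosses the other way, and 6 of 7 CXC chemokines lie left of it in both groups.

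Among CXC chemokines, which bind CXC receptors and mostly draw neutrophils and lymphocytes, CXCL8 alone passed the test. CXCL8, known as interleukin 8, was at 6.021, 6.230 and 6.003 on the 3 parent arrays and at 8.02, 8.06 and 8.31 on the 3 colony arrays. Every colony array lay above every parent array. The difference was 2.04 ± 0.09 (log2 ± SE, adjusted p = 2.8e-06 by limma), or 4.12-fold. The parent mean of 6.08 lay under the lowest array median, so the fold is that of the deposited values. Its 50 nearest genes above the median gene, 25 on each side in reference gene order, had a median difference of -0.32. In bulk RNA, fewer cells expressing a gene and less of its RNA per cell cannot be told apart, and the same holds for a rise.

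The promoter of CXCL8 is shown because letters of the NF-kB and AP-1 motifs lie near each other in it. RefSeq (GRCh38.p14) places these 250 bases before the start at chr4:73740319-73740568 on the plus strand. Capitals mark letters matching TGANTCA, the AP-1 motif, 137 bases before the start, and GGNNNTTCC, a loose form of the kB motif, 91 bases before it.
CXCL8: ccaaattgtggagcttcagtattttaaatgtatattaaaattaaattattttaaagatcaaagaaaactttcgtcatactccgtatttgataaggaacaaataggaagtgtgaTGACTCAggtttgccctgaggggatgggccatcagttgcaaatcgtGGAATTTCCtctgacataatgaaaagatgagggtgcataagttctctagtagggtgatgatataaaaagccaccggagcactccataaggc

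CXCL1, CXCL2, CXCL3 and CXCL5, which share the receptor CXCR2 with CXCL8 and lie in the same gene cluster, did not pass. CXCL1 was at 6.08, 6.17 and 6.15 on parent arrays and 6.15, 6.14 and 6.15 on colony arrays, so the groups overlapped (0.01 ± 0.04, adjusted p = 0.851 by limma). The differences of CXCL2 (0.09), CXCL3 (0.07) and CXCL5 (0.01) had SEs of 0.05, 0.07 and 0.06. CXCL10, an interferon-inducible ligand of CXCR3, had a mean of 3.41 ± 0.09 on parent arrays and 3.50 ± 0.02 on colony arrays (SD, n = 3 each). CXCL12, the ligand of CXCR4, was at 4.65 ± 0.09 and 4.57 ± 0.00. All 6 were dim in both groups, CXCL1 being nearest to the array medians. On 5 of these 7 probe sets, arrays shared identical deposited values. CXCL3 read 5.45 on all 3 colony arrays, for example.

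The promoters of CXCL1, CXCL2, CXCL3 and CXCL5 hold closer matches to the kB motif than that of CXCL8, which is why they are set side by side. That of CXCL10 also holds the consensus, and that of CXCL12 holds neither form. Each line gives 10 bases on both sides of the match, 5′ to 3′ along the gene (RefSeq, GRCh38.p14), with the match to the loose motif or the stricter kB consensus in capitals. CXCL1, on the plus strand, is at chr4:73869304-73869334. CXCL2, CXCL3 and CXCL5, on the minus strand, are at chr4:74099253-74099283, chr4:74038748-74038778 and chr4:73998748-73998778. CXCL8, on the plus strand, is at chr4:73740468-73740496.
CXCL1: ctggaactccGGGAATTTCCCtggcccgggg
CXCL2: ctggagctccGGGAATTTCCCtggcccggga
CXCL3: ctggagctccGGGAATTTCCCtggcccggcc
CXCL5: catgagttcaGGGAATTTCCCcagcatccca
CXCL8: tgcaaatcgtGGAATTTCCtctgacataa

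The same 11 letters stood in the promoters of CXCL1, CXCL2, CXCL3 and CXCL5, between 78 and 91 bases before the start, and also in that of the inhibitor gene NFKBIB. CXCL8, the one that rose, holds 9 letters that match the loose form and not the stricter consensus. A match is a description of letters, not a site of binding.

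Among CC and CX3C chemokines, CCL2 and CCL5 rose, CCL20 and CX3CL1 fell, and CCL7 did not pass. CCL2, which draws monocytes through the receptor CCR2, was at 4.89, 5.32 and 5.15 on parent arrays and at 7.64, 7.64 and 7.90 on colony arrays. Its groups lay far apart, with the largest difference in deposited values of the 41 genes, 2.60 ± 0.12 (adjusted p = 2.7e-06 by limma, 6.08-fold). The parent mean, 5.12, lay under the lowest array median. CCL7, which also attracts monocytes and is a neighbour of CCL2 in the same cluster, was at 4.768, 4.595 and 4.805 against 4.829, 4.819 and 4.893, a difference of 0.12 ± 0.06 (adjusted p = 0.175 by limma). Its groups did not overlap, but both were dim. The nearest genes of both had a median difference of 0.14.

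CCL5, which attracts T cells, rose by 0.51 ± 0.08 (adjusted p = 0.0015 by limma) from 5.50 ± 0.16 to 6.01 ± 0.07, both under the lowest array median. CX3CL1, fractalkine, a membrane-bound chemokine that also works as an adhesion molecule, fell by 0.49 ± 0.06 (adjusted p = 2.5e-04). It was at 8.33, 8.24 and 8.37 on parent arrays and 7.85, 7.75 and 7.87 on colony arrays, the brightest chemokine of the set in parent cells. The nearest genes had medians of 0.11 for CCL5 and -0.26 for CX3CL1.

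CCL20, the ligand of CCR6, was at 6.72, 6.77 and 6.57 on parent arrays and at 5.34, 5.42 and 5.57 on colony arrays. All colony values were below all parent values, with a difference of -1.24 ± 0.08 (adjusted p = 1.1e-05 by limma, 2.37-fold lower in the deposited values). The colony mean, 5.44, lay under the lowest array median. Its nearest genes had a median difference of -0.17. CCL20 moved against CXCL8 and CCL2, although all 3 are textbook NF-kB targets, so its promoter is shown for comparison with that of CXCL8. It lies at chr2:227813592-227813841 on the plus strand (RefSeq, GRCh38.p14), with the match to the kB consensus in capitals 79 bases before the start.
CCL20: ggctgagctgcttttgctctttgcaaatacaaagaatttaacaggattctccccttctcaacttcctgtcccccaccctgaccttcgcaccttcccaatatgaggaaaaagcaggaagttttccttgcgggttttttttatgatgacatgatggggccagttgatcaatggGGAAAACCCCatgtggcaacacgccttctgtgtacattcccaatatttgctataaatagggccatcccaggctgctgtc

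Interleukins and TNF were dim throughout, and of 7 genes only IL24 passed. IL24, a cytokine first described in differentiating melanoma cells, was at 5.37, 5.52 and 5.51 on parent arrays and 5.69, 5.78 and 5.85 on colony arrays, without overlap (0.31 ± 0.06, adjusted p = 0.0054 by limma). Its nearest genes had a median of 0.31. IL1A and IL1B, the ligands of the interleukin 1 receptor, were at 3.98 ± 0.01 and 4.59 ± 0.12 in parent cells and differed by 0.01 ± 0.04 and 0.12 ± 0.07. TNF was at 5.11, 5.27 and 5.22 against 5.34, 5.03 and 5.35 (0.04 ± 0.09), with the groups overlapping. IL15, IL18 and IL33 differed by 0.10, 0.14 and 0.00. On IL18 the colony values were 2.69, 2.70 and 2.99, above the parent values of 2.66, 2.65 and 2.66, all among the lowest levels of the set (adjusted p = 0.236 by limma).

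Both chains of the interleukin 1 receptor fell. IL1R1, the chain that binds the ligand, was at 5.55, 5.31 and 5.44 on parent arrays and 4.485, 4.316 and 4.604 on colony arrays, a difference of -0.96 ± 0.09 (adjusted p = 8.4e-05 by limma, 1.95-fold lower), with both means under the lowest array median. IL1RAP, the accessory chain that completes the receptor, was bright at 10.66, 10.56 and 10.64 on parent arrays. All 3 colony arrays held the identical deposited value, 10.13. IL1RAP fell by 0.50 ± 0.04 (adjusted p = 7.2e-05 by limma), with no spread among colony arrays behind that SE. The nearest genes had medians of -0.24 for IL1R1 and -0.08 for IL1RAP. CXCR4, the receptor of CXCL12, was dim at 4.69 ± 0.18 and 4.65 ± 0.06 (adjusted p = 0.741).

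Of the adaptors measured, both fell. TRAF1, itself an NF-kB target, was at 5.55, 5.60 and 5.58 on parent arrays and 5.10, 4.95 and 4.94 on colony arrays (-0.58 ± 0.06, adjusted p = 1.0e-04 by limma), dim in both groups. TRAF3, which restrains the non-canonical pathway, was bright and fell by 0.22 ± 0.04 (adjusted p = 0.0044), from 8.214 ± 0.018 to 7.999 ± 0.035. The nearest genes had medians of 0.14 for TRAF1 and -0.23 for TRAF3.

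Of the 3 IkB kinases, IKBKB, the catalytic subunit of the canonical pathway, rose. It was at 7.78, 7.74 and 7.74 on parent arrays and 8.26, 8.34 and 8.47 on colony arrays, without overlap (0.60 ± 0.06, adjusted p = 1.1e-04 by limma, 1.52-fold). Its nearest genes had a median of -0.08. CHUK, the subunit that serves the non-canonical pathway, differed by 0.13 ± 0.06 (adjusted p = 0.138). IKBKE, a related kinase of interferon signalling, differed by -0.10 ± 0.04 (adjusted p = 0.0961), with groups that did not overlap.

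The IkB proteins and inducible brakes did not move together. TNFAIP3, which encodes A20, an inducible enzyme that edits ubiquitin to end signalling, was at 8.34, 8.34 and 8.39 on parent arrays and at 7.07, 7.07 and 7.08 on colony arrays. This was the deepest fall of the 41 genes, -1.29 ± 0.04 (adjusted p = 5.4e-07 by limma, 2.44-fold lower), with both groups above the array medians and a neighbour median of 0.06. NFKBIZ, an inducible nuclear IkB protein that helps switch on secondary targets, rose from 7.30, 7.38 and 7.38 to 8.01, 8.07 and 7.88 (0.63 ± 0.06, adjusted p = 9.5e-05 by limma, 1.55-fold). Its neighbour median was 0.08. The classical cytoplasmic IkB genes did not pass: NFKBIA differed by 0.15 ± 0.07 (adjusted p = 0.122), NFKBIB by 0.05 ± 0.05 and NFKBIE by -0.09 ± 0.07.

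The promoter of TNFAIP3 is printed because it holds a closely spaced pair of matches to the kB consensus. The region is chr6:137867009-137867258 on the plus strand (RefSeq, GRCh38.p14), and the capitals mark the matches, 67 and 55 bases before the start.
TNFAIP3: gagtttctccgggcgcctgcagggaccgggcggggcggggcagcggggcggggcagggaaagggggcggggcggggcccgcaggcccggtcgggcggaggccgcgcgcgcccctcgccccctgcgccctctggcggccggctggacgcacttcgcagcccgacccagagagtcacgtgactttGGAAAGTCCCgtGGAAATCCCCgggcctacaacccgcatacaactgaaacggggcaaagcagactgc

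Among the 5 NF-kB subunits, NFKB1 fell and REL, RELA and RELB rose. NFKB1, which encodes p105 and its product p50, was at 9.18, 8.98 and 9.06 on parent arrays and 8.34, 8.43 and 8.47 on colony arrays (-0.66 ± 0.07, adjusted p = 1.2e-04 by limma, 1.58-fold lower). Its nearest genes had a median of -0.33. REL, the subunit best known from lymphocytes, was at 8.09, 8.11 and 7.98 against 8.59, 8.55 and 8.38 (0.45 ± 0.07, adjusted p = 0.0012). RELA, the main transactivating subunit p65, was at 9.35, 9.37 and 9.45 against 9.62, 9.62 and 9.62 (0.23 ± 0.05, adjusted p = 0.0042).

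RELB, the subunit of the non-canonical pathway, was at 7.33, 7.33 and 7.45 against 7.78, 7.65 and 7.55 (0.29 ± 0.07, adjusted p = 0.0125 by limma). Without parent replicate 2, RELB missed the threshold at adjusted p = 0.0514. NFKB2, its usual partner, did not pass (0.19 ± 0.08, adjusted p = 0.0888), and its groups overlapped. The neighbour medians of REL, RELA and RELB were -0.06, -0.09 and 0.08.

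Of the 4 effector genes, 0 passed by limma over all genes, and 1, ICAM1, had an unadjusted p under 0.05. ICAM1, an adhesion molecule for leukocyte integrins, was the brightest gene of the set, at 11.06, 11.01 and 11.08 on parent arrays and 11.16, 11.14 and 11.16 on colony arrays. The groups did not overlap, and the difference was 0.11 ± 0.04 (adjusted p = 0.0757). After quantile normalization ICAM1 passed, with a difference of 0.16 (adjusted p = 0.0176 by limma). VCAM1, a related adhesion molecule, was dim (0.15 ± 0.07, adjusted p = 0.163). PTGS2, the inducible cyclooxygenase, was at 7.17, 6.95 and 7.03 against 6.88, 7.06 and 6.94 (-0.09 ± 0.07, adjusted p = 0.415). TNFAIP2, a TNF-inducible gene, read 6.07 on 5 of the 6 arrays and 6.25 on parent array 3.

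**Figure D2:**
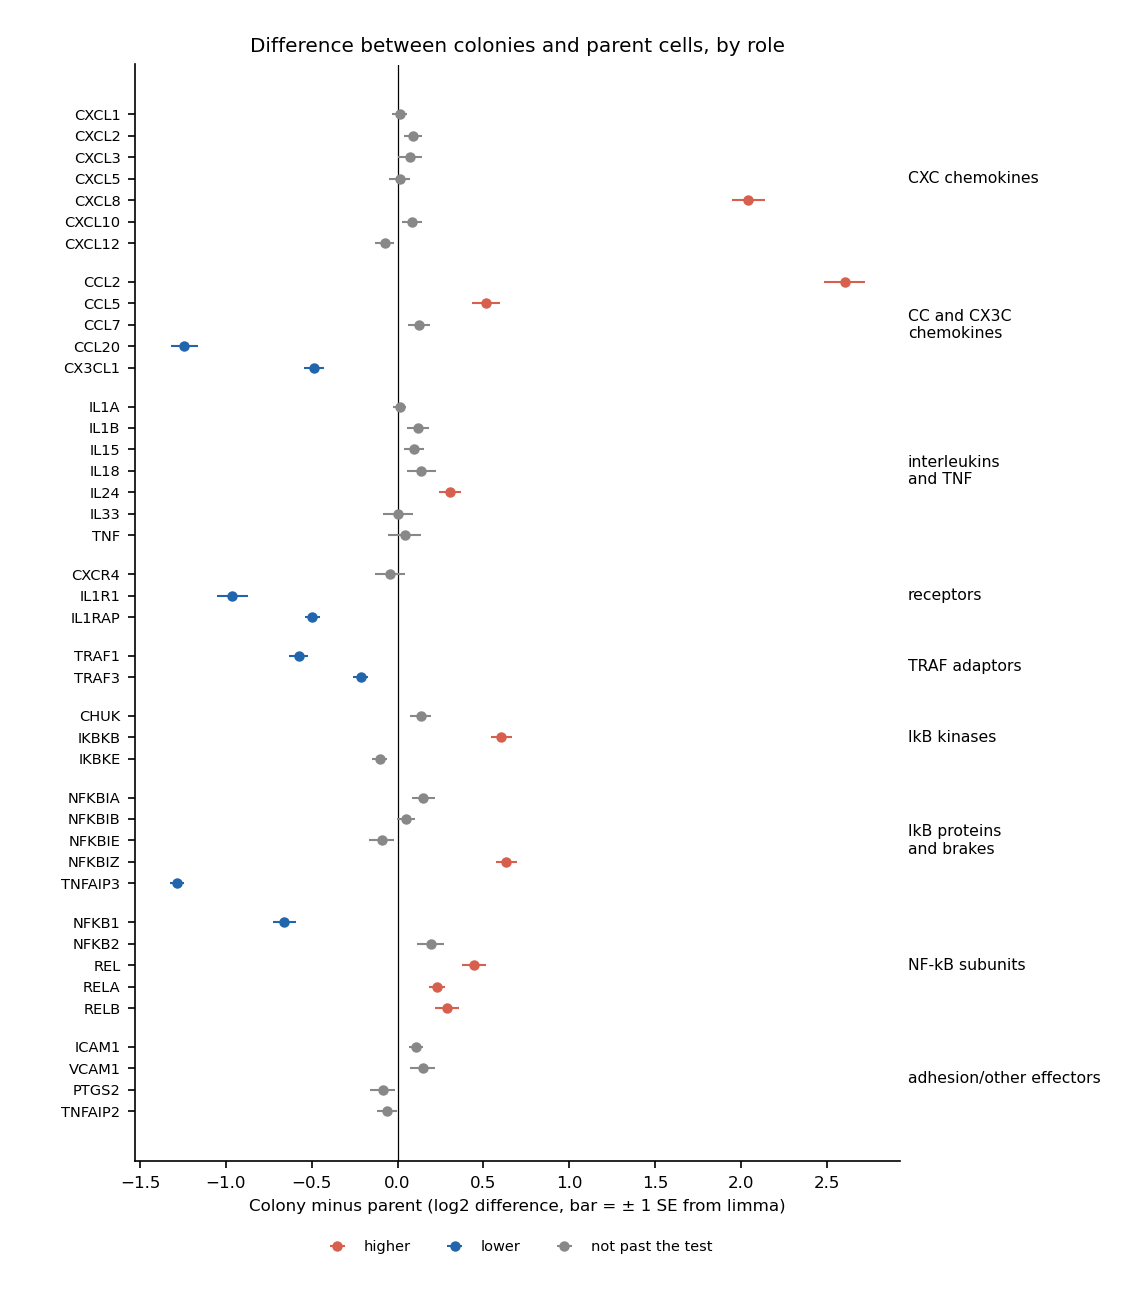
Colony minus parent difference of each of the 41 genes on the log2 scale, with bars of ± 1 SE from limma, in red where higher, blue where lower and grey where not past the test. The 2 largest rises, CCL2 (2.60) and CXCL8 (2.04), stand apart from all other genes of the set, and the deepest falls are TNFAIP3 (-1.29) and CCL20 (-1.24).

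Across the promoters, kB matches were common and went with either direction. RefSeq gave 48 start windows of 300 bases for 33 of the 41 genes, each reaching from 250 bases before the start to 50 after it. CCL2, CCL5, CX3CL1, IKBKB, IL15, IL18, NFKBIE and RELB were not matched. Of these, CCL2, CCL5, IKBKB and RELB rose and CX3CL1 fell, so the counts by gene leave out more genes that rose than fell. The stricter kB consensus, searched on both strands, was present in 17 of the 48 windows, against 5.91% of all 35116 windows. The loose form, GGNNNTTCC, with which it overlaps, was present in 25 of the 48, against 20.05%. By gene, 15 of 33 held the consensus, of which 2 rose, 4 fell and 9 did not pass. Of the 18 without it, 3 rose, 3 fell and 12 did not pass. Across all genes 20.9% rose and 22.9% fell. These genes are known for NF-kB control, so the frequency of the motif is a description of the list.

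The AP-1 motif TGANTCA was present in 5 of 48 windows, against 7.71% of all, belonging to CXCL8, CCL7, NFKBIB and 2 overlapping windows of IL1A. The core of the interferon response element (GAAA, 2 free bases and GAAA again) was present in 4 windows, against 3.57%, those of CXCL10, IL24, RELA and VCAM1. The matches of members that rose, fell or missed the threshold are set side by side in the next lines (RefSeq, GRCh38.p14, 5′ to 3′ along the gene, match to the kB motif in capitals). They lie at chr4:102501300-102501329 on the plus strand for NFKB1, chr2:60881517-60881547 on the plus strand for REL and chr3:101827757-101827786 on the plus strand for NFKBIZ. The window of NFKBIA lies at chr14:35404811-35404840 on the minus strand and that of VCAM1 at chr1:100719670-100719699 on the plus strand.
NFKB1, lower: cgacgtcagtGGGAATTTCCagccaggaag
REL, higher: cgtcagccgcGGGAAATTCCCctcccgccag
NFKBIZ, higher: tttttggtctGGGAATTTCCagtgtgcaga
NFKBIA, not past the test: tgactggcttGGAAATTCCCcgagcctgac
VCAM1, not past the test: tccccttgaaGGGATTTCCCtccgcctctg

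**Figure D3:**
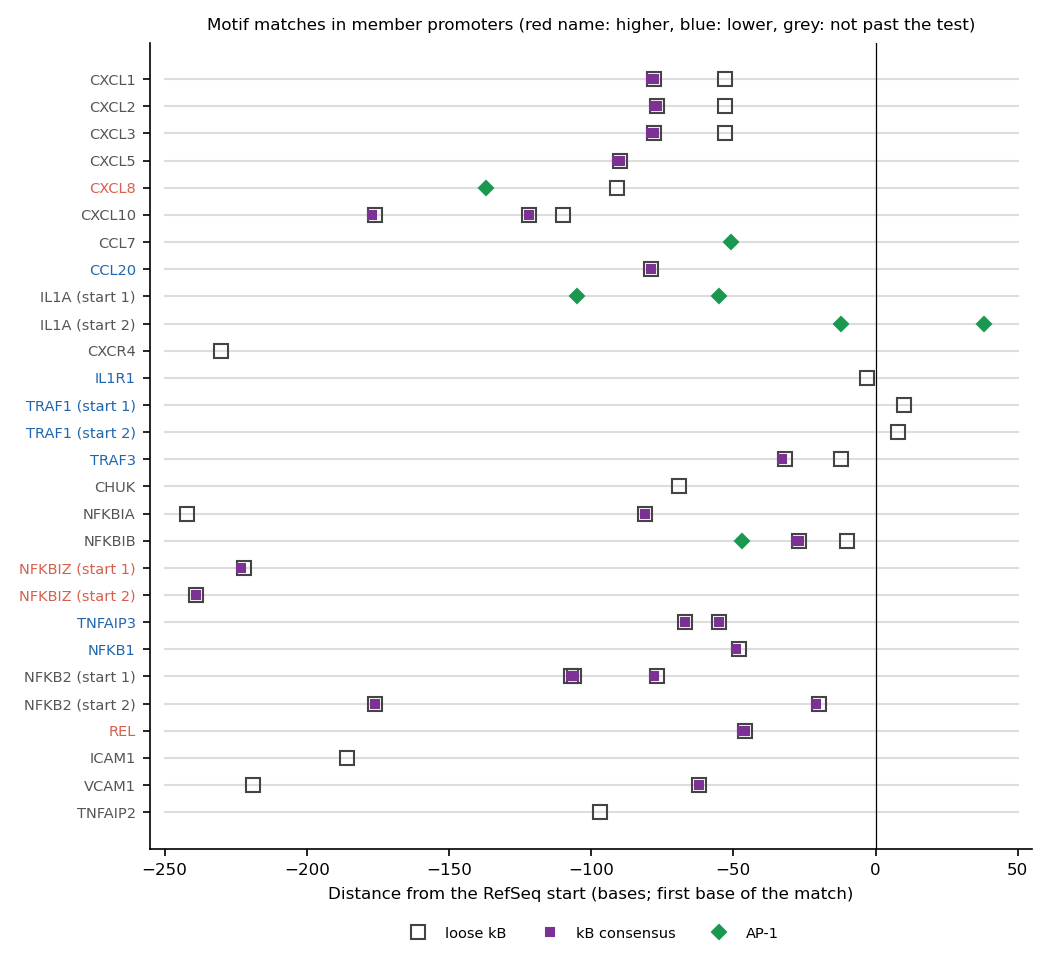
First base of each match to the loose kB motif (open squares), the kB consensus (purple squares) and the AP-1 motif (green diamonds), in bases from the RefSeq start, for the members with a match. Names are red where the gene rose, blue where it fell and grey where it did not pass. Genes of all 3 colours carry kB consensus matches, and CXCL8 carries an AP-1 match 137 and a loose kB match 91 bases before the start.

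The rest of the pathway was read from 6 lists of genes outside the 41. Of 26 receptors for chemokines and cytokines, 1 rose, 3 fell and 22 did not pass, with a median of -0.02, and 21 were dim in both groups. CCR1, a receptor for CCL5 and CCL7, fell by 1.70 ± 0.15 (adjusted p = 5.5e-05 by limma), to a colony mean of 4.76, under the lowest array median. IL1R2, the decoy receptor for interleukin 1, was dim in both groups and changed by -0.28 ± 0.06, beside the same neighbour median as IL1R1. TNFRSF1A, the main TNF receptor, changed by -0.24 ± 0.05.

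Adaptors and kinases upstream of IkB were mostly bright, and 6 of 20 rose, 7 fell and 7 did not pass (median 0.08). TAB3, which links TRAF6 to the kinase TAK1, rose by 1.89 ± 0.06, from 9.41 to 11.30. IRAK1, the kinase recruited to the interleukin 1 receptor, fell by 0.70 ± 0.08. TRAF5 rose by 0.70 ± 0.09, unlike TRAF1 and TRAF3. Of 15 genes listed as other inhibitors, 4 rose and 2 fell (median 0.04). That name is a label, and whether a gene acted as a brake in these cells was not tested. BCL3, a nuclear IkB protein like NFKBIZ, rose by 0.91 ± 0.06, and OTUD7B, a deubiquitinase that protects TRAF3, by 0.61 ± 0.07. TNIP1, a partner of A20, fell by 0.50 ± 0.06.

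Other NF-kB target genes included 1 that rose, 5 that fell and 22 that did not pass of 28 (median -0.05). The survival gene BCL2A1 fell by 2.82 ± 0.07, to a dim colony mean of 5.28. The stress-inducible gene IER3 fell by 0.95 ± 0.04 and GCH1, an enzyme of tetrahydrobiopterin synthesis, by 0.63 ± 0.06. IER3 had the identical deposited value, 11.66, on all 3 colony arrays. Of 44 other chemokines and interleukins, 37 were dim in both groups, 3 rose and 3 fell (median -0.00). CXCL16, a membrane-bound chemokine, fell from 7.87 ± 0.09 to 4.64 ± 0.13, a difference of -3.23 ± 0.08 between deposited values, with the colony mean under the lowest array median. IL10, dim in both groups, changed by -0.62 ± 0.08 and IL34 by 0.34 ± 0.09.

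Around PTGS2, 2 of 13 prostaglandin genes rose and 3 fell (median -0.04). TBXAS1, thromboxane synthase, fell by 2.59 ± 0.07 and PTGES3, a cochaperone also described as a prostaglandin synthase, by 0.79 ± 0.08. HPGD, which degrades prostaglandins, rose by 0.46 ± 0.08. The lists were chosen for what their genes do, and they differ in brightness. Of the genes not above the median gene, 3 of 25 receptors, 5 of 42 other chemokines and interleukins and 5 of 22 other targets were called, against 19.5% of such genes on the array. Of those above it, 11 of 15 adaptors and kinases and 6 of 12 other inhibitors were called, against 68.0%. Among prostaglandin genes, 2 of 8 not above the median gene and 3 of 5 above it were called.

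**Figure D4:**
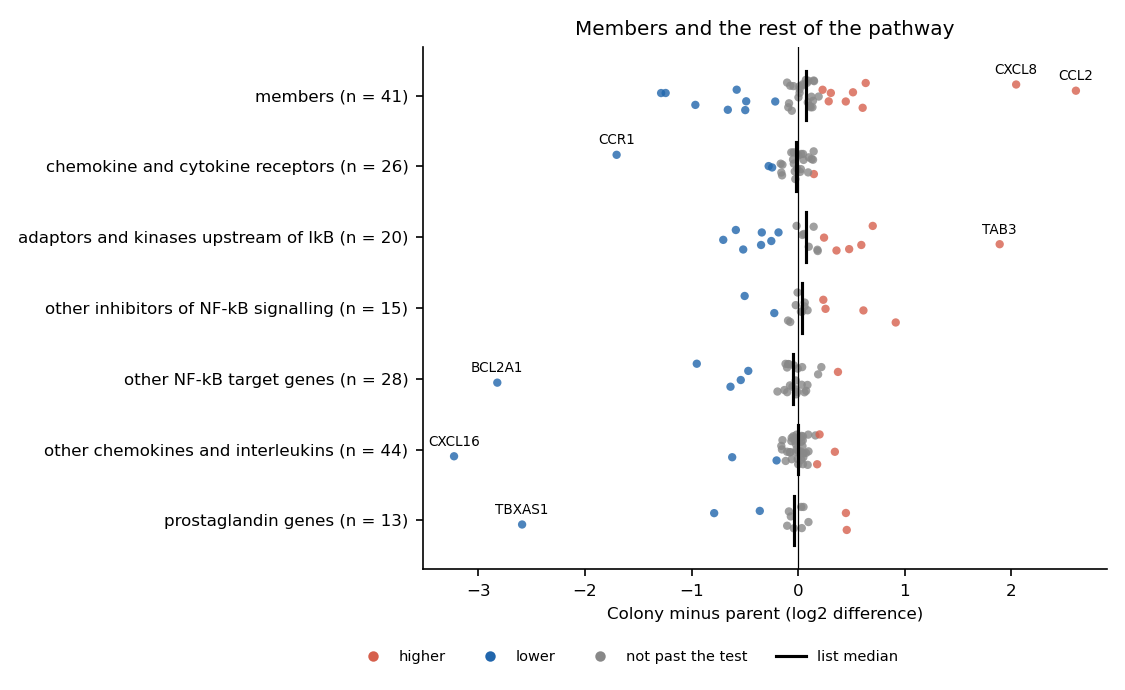
Colony minus parent difference (log2, x axis) of the 41 members and of the genes in the 6 lists around them (rows, with the number measured), in red where higher, blue where lower and grey where not past the test, with a black bar at each median. Genes beyond 1.5 in either direction are named, and every list median lies between -0.05 and 0.08.

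**Figure D5:**
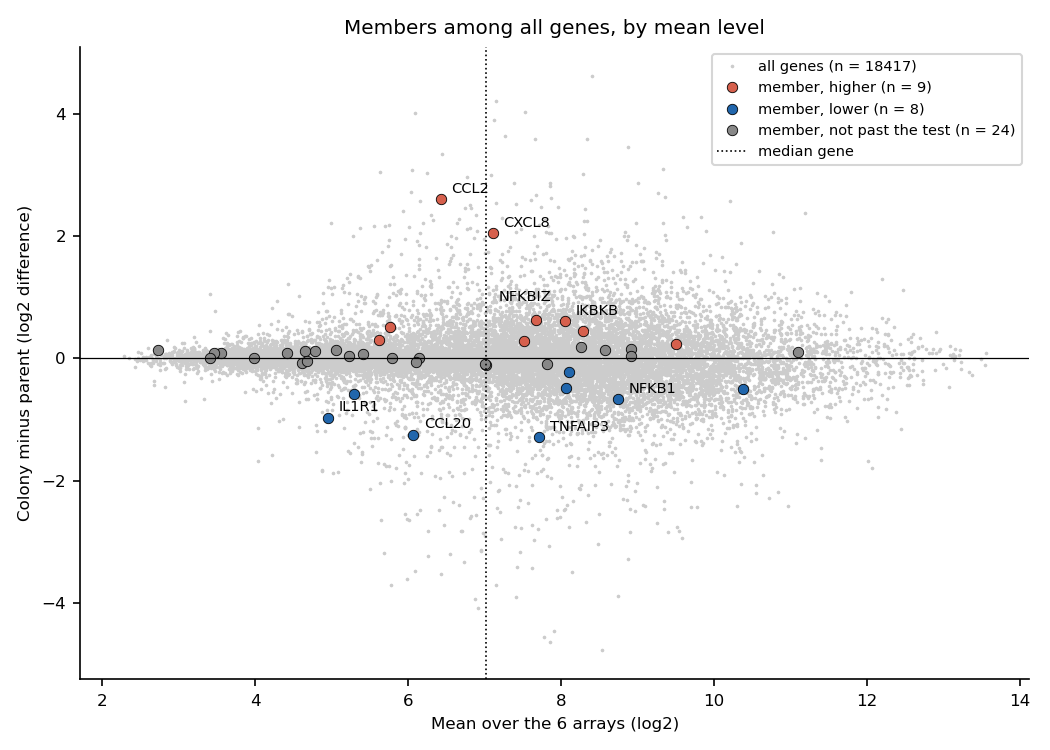
Mean over the 6 arrays (x axis, log2) against the colony minus parent difference (y axis, log2) for all 18417 genes (light grey) and the 41 members (coloured by call). The members left of the median gene (dotted line, 7.02) lie close to 0 apart from CCL2, CCL20, IL1R1, TRAF1, CCL5 and IL24, the 6 of 23 that were called there.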

How the data were processed

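Deposited values were analysed from 3 parent and 3 IDTC colony samples, grouped by their titles. The authors made the log2 values, 1 per probe set, with Affymetrix Expression Console before they were deposited, per the submitters' processing notes, and the log scale was read from the range of the values. For the version of that tool and for background correction, summarisation and normalization, the sources used here give nothing. Per the labels' protocols, RNA came from a Qiagen RNeasy kit and was labelled with the Ambion WT Expression and Affymetrix WT Terminal Labeling kits. Arrays have no read depth, and their number limits the precision.

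Of 33297 probe sets, 19460 had 1 gene symbol, 1754 several and 12083 none in the platform annotation, and 19429 matched GRCh38.p14 by Entrez ID. For 769 genes with several probe sets, the one brightest on average over all arrays was used, giving 18417 genes with no filter on dim ones. Of these, 30.4% had identical values on some arrays, as had 12 of the 41 members. Groups were compared with limma 3.58.1 in R 4.3.3 (lmFit and eBayes, group as the only term, 2-sided). A run on simulated data had independent normal noise and few shifted genes, so it checks the procedure and not the calls made here. Tables and plots used Python 3.11.15 with pandas 2.3.3, numpy 2.4.6 and matplotlib 3.10.9. Members past the test by at least 1.5-fold were given with all values, and from each further list the 3 largest differences past the test. MITF, SOX10, PMEL and MLANA were named whatever their values. Protein sequences were not used here. Members and lists were chosen with earlier results of these data known. Alternatives were each array left out, the replicate number as a block, trend and robust options in eBayes, averaged probe sets, a restriction to genes brighter than the median gene, quantile normalization, and arrays shifted to 1 median.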

Additional observations from a re-analysis of the deposited data

How the results depend on the processing

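The counts of members called, 9 higher and 8 lower, stayed within 1.5 times under the 12 alternative settings. Among the 18 members tested with only genes above the median expression, 8 rose and 6 fell, against 6 and 5 in the main fit. Of the 17 called members, 16 kept their call and direction in every setting that tested them. The exception was RELB, whose call ended without parent replicate 2. Of the 24 others, 21 passed in no setting. ICAM1 passed after quantile normalization (0.16, adjusted p = 0.0176), with only genes above the median expression (adjusted p = 0.0363) and with trend and robust settings (adjusted p = 0.0144). IKBKE passed in the first 2 of these settings (adjusted p = 0.0385 and 0.048). NFKB2 passed with only genes above the median expression (adjusted p = 0.0396), with the replicate block (adjusted p = 0.0297) and without parent replicate 3 (adjusted p = 0.0355).

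Over all genes the calls without 1 array ranged from 3384 to 3860 higher and from 3733 to 4494 lower. Only genes above the median expression, which leave 18 members to test, gave 3093 higher and 3642 lower. Whether the replicate numbers pair the samples is not known. Same-numbered arrays correlated at -0.09, -0.06 and -0.01 in their deviations from the group means, and parent replicate 2 with colony replicate 1 at 0.11. With 3 arrays a group, such values cannot decide it. With the replicate block 3633 genes were higher and 3931 lower, and member counts were 10 and 8.

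Signs turned for 7 members, all among those that passed in no setting, and the turned values were at most 0.0851 in size. With a common array median CXCL1 was -0.0128, CXCL5 -0.0123, IL1A -0.0137 and IL33 -0.023. After quantile normalization the same genes were -0.009, -0.0003, -0.0086 and -0.0216. Leaving out 1 array gave ranges of -0.013 to 0.0301 for CXCL1, -0.0034 to 0.1112 for CXCL3, -0.0391 to 0.0522 for CXCL5, -0.0851 to 0.0625 for IL33, -0.0142 to 0.1486 for TNF and -0.1388 to 0.0341 for CXCR4. The cause was not tested.

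In the further lists, the 1 receptor that rose was lost (0) with a common array median, with only genes above the median expression, with trend and robust settings and with the replicate block, and 0 to 1 rose without 1 array. With only genes above the median expression, 1 receptor fell, 0 other targets rose and 1 fell, 0 other chemokines and interleukins rose and 1 fell, and 0 prostaglandin genes rose, since few members of each list were left to test. With a common array median 1 other chemokine or interleukin rose. Without 1 array, 1 to 2 other inhibitors fell, 1 to 2 other targets rose, 1 to 3 other chemokines and interleukins rose and 3 to 6 fell. The receptor was lost without parent replicate 3 or colony replicate 1 or 2, and 1 inhibitor was left without parent replicate 2 or 3 or colony replicate 3. The 2 targets came without colony replicate 1 or 2, the 1 riser among other chemokines and interleukins without colony replicate 2, and the 6 that fell without parent replicate 1.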
